A study of Mus musculus with 14 samples.

Results

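Some stretches of open chromatin sit next to more than 1 gene. The authors' lists pair each region of changed accessibility with every gene whose start it covers or lies upstream of, within 5 kb, and a region listed with at least 2 different gene identifiers in a comparison was taken as a shared region. Of 9954 listed regions, 694 (6.97%) were shared: 666 by 2 genes, 25 by 3 and 3 by 4. They name 956 genes in 482 distinct gene sets. No measured value entered this choice beyond the authors' own call of a changed region.

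The data are ATAC-seq, which reads out where a transposase can reach the DNA, from erythro-myeloid progenitors sorted from yolk sacs of C57BL/6 mouse embryos at stage E10.5, 500 cells per sample. Every embryo carried 2 floxed copies of Ezh2 (Ezh2 fl/fl). Tie2 KO embryos (5 samples) also carried a Tie2-Cre transgene and Vav KO embryos (3 samples) a Vav-Cre transgene, while Tie2 WT embryos (3 samples) had the floxed alleles without Cre. The lists compare Tie2 KO with Tie2 WT, Vav KO with Tie2 WT, and Tie2 KO with Vav KO. Vav KO was thus set against a control from the other Cre line, and the 3 Vav WT samples enter no list. Tie2-Cre is known to act in endothelial cells and their blood cell progeny, and Vav-Cre within blood cells. The lists hold regions called as changed, with 1 value per region and none per sample, so the depth and spread of the samples are unknown and the labelled cell type could not be checked against its markers, nor the deletion of Ezh2 in each sample. A larger share of cells with a region open and more opening in each cell cannot be told apart.

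Neighbouring genes on opposite strands that are read away from each other are called head to head, and when their starts lie close together the DNA between them is called a bidirectional promoter. Such promoters are known to be rich in G, C and the dinucleotide CpG, to lack TATA boxes more often than other promoters, and to join many housekeeping genes as well as genes with a divergent long non-coding RNA (lncRNA). Ezh2 is the enzyme of the Polycomb complex PRC2, which places the repressive methyl mark on lysine 27 of histone H3. The CpG-rich starts of developmental transcription factor genes are its best known targets.

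Gene pairs were ordered by strand and by the distance between their starts. A pair was close head to head when the minus-strand start lay at most 1000 bp to the left of the plus-strand start, and spaced head to head when it lay farther off. Overlapping heads are pairs whose plus-strand start lies to the left of the minus-strand start, so that both transcripts cross the DNA in between. Same-strand pairs were split into those given 1 common start and those with different starts. Tail-to-tail pairs cannot occur, because a region counted only when it covered a start or lay upstream of it.

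The sequences below are the plus-strand DNA between the starts of 8 close head-to-head pairs, from RefSeq promoter windows of GRCm38.p6, with every CpG in capitals. They are shown because they hold the shared promoters of pairs described below. The first 4 lay in regions higher in Tie2 KO than in Vav KO, the next 2 in regions higher in both knockouts against Tie2 WT, and the last 2 in regions listed as lower.
Gm26633/Acan, chr7:79053324-79053482: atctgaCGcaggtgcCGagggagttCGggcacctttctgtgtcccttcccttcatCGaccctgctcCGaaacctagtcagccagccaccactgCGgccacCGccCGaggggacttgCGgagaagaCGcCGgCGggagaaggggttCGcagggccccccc
Uph/Hand2, chr8:57320860-57320982: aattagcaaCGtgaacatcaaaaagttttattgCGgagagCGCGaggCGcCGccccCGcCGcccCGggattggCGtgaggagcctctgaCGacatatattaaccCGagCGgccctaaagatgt
Lhx1/Lhx1os, chr11:84525535-84525659: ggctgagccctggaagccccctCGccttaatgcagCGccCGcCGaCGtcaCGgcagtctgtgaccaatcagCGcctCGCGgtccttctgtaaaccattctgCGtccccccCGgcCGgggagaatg
Haglr/Hoxd1, chr2:74762897-74762979: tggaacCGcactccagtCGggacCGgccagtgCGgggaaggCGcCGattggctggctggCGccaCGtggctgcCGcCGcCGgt
Bhmt2/Dmgdh, chr13:93674303-93674435: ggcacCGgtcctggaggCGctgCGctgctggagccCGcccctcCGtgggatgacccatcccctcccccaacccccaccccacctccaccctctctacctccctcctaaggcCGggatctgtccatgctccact
Smc1b/Ribc2, chr15:85131958-85132098: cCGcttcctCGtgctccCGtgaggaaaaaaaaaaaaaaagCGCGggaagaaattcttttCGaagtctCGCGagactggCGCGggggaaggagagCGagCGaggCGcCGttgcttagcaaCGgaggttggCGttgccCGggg
Polr3c/Rnf115, chr3:96727440-96727610: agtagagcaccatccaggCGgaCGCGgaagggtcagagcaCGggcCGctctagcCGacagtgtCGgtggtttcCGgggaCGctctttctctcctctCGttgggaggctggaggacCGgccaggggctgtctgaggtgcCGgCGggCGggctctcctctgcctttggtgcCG
Qrsl1/Rtn4ip1, chr10:43901737-43901806: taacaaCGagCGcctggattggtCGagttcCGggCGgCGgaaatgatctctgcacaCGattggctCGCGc
The Gm26633/Acan gap holds 13 CpG in 159 bases, the Haglr/Hoxd1 gap 11 in 83 and the Bhmt2/Dmgdh gap 6 in 133. CpG-dense gaps therefore occurred beside higher and lower regions alike: the Polr3c/Rnf115 gap holds 15 CpG and the Qrsl1/Rtn4ip1 gap 9.

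Of the 118 distinct close head-to-head and overlapping pairs, 93 had a RefSeq promoter window. Such a window spans 300 bases from 250 before to 50 after a gene start. For each pair 1 window was read, at the plus-strand start where it matched and otherwise at the minus-strand start. The window of the partner was not searched. The median window held 63.0% G+C and 19 CpG, against 52.7% and 7 over all 32851 RefSeq windows. CCAAT was found on either strand in 39.8% of the pairs' windows and in 37.4% of all windows. The TATA box letters TATAAA were found in 9.68% against 13.6%, and the NRF1 palindrome in 0 of 93 against 0.971%. The 32 gaps that could be read whole were 18 to 242 bases long, with a median of 124 and a median G+C of 67.8%.

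The 8 letters CCGGAAGT, which hold the core known to bind ETS-family factors, were found in 5 of 15 windows (33.3%) of pairs listed only as lower and in 0 of 75 of pairs listed only as higher. Over all RefSeq windows the share was 3.89%. The 5 matches are printed with 11 bases on each side, on the plus strand, with the match in capitals. They are shown because, of the 4 motifs searched, this one was picked after its counts by direction were seen.
1700088E04Rik/Polr2f, chr15:79141297-79141326: gccgctgcttcCCGGAAGTaactgcgcctg
Aimp1/Tbck, chr3:132684069-132684098: gggacaggcggCCGGAAGTtttggggtctt
Spata17/Gpatch2, chr1:187215502-187215531: ccagccggcttCCGGAAGTtgctctcaaaa
Zfp65/Zfp85os, chr13:67729119-67729148: taagaacgaatCCGGAAGTttggtaccaac
Serinc4/Hypk, chr2:121457071-121457100: tgtgagggttgCCGGAAGTtgtgaagcggc
The match lay inside the pair's changed region at Polr2f (a subunit shared by RNA polymerases), Tbck, Gpatch2 and Zfp85os. At Serinc4/Hypk neither of the 2 regions covered it. These letters mark a sequence match and not a measured binding site.

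Between Tie2 KO and Tie2 WT, 262 of 3578 regions were shared (7.32%, exact 95% binomial interval 6.49 to 8.23, which covers counting over the list only). Of these, 213 were higher in Tie2 KO (81.3%, 76.0 to 85.8), against 82.7% of all listed regions. Between Vav KO and Tie2 WT, 109 of 1943 regions were shared (5.61%, 4.63 to 6.73), and 75 of them were higher in Vav KO (68.8%, 59.2 to 77.3), against 67.6% of all. Between Tie2 KO and Vav KO, 323 of 4433 regions were shared (7.29%, 6.54 to 8.09), and 211 were higher in Tie2 KO (65.3%, 59.9 to 70.5), against 64.8%. As a whole, shared regions were thus split between higher and lower close to the background of each list.

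The size of the change was somewhat smaller at shared regions. In the authors' deposited table for Tie2 KO against Tie2 WT, the median log2 fold change of higher shared regions was 0.94 and that of all higher regions 1.02. The same medians in the authors' deposited table were 1.27 and 1.35 for Vav KO against Tie2 WT, and 1.04 and 1.16 for Tie2 KO against Vav KO. For lower regions the authors' deposited table gave medians of -0.81 at shared and -0.86 at all regions, then -1.04 and -1.29, then -0.97 and -1.12, in the same order. An absolute log2 fold change of at least 1 was reached by 95 of 213 higher shared regions (44.6%) in Tie2 KO against Tie2 WT, where 52.5% of all higher regions reached it. It was reached by 48 of 75 (64.0%, background 71.8%) in Vav KO against Tie2 WT and by 117 of 211 (55.5%, background 64.5%) in Tie2 KO against Vav KO. For lower shared regions the counts were 12 of 49 (24.5%, background 33.4%), 19 of 34 (55.9%, background 74.0%) and 54 of 112 (48.2%, background 60.3%). All 6 shares lay under their background, but the comparisons share groups of samples, so they are not independent of each other. The intervals of the 12 of 49 (13.3 to 38.9) and of the 48 of 75 (52.1 to 74.8) held their background, and the others did not.

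The width of a region bears on how many starts it reaches. Among regions higher in Tie2 KO against Tie2 WT, 35 of 621 of the smallest width (999 bp) were shared (5.64%), against 34 of 295 wider than 3000 bp (11.5%). Among regions higher in Tie2 KO than in Vav KO the same shares were 5.12% and 16.5%. In the Vav KO against Tie2 WT list no region was wider than 3000 bp, and the share over both directions ran from 6.8% at the smallest width to 4.43% above 1500 bp. Within width classes, regions of the smallest width were higher in 63.6% of shared and 67.3% of 1-gene regions in Tie2 KO against Tie2 WT, those up to 1500 bp in 68.6% (56.4 to 79.1) and 80.1%, and those of over 1500 to 3000 bp in 93.2% and 92.8%. In Tie2 KO against Vav KO the same 3 classes had 47.1% (36.3 to 58.1) and 56.9%, 59.3% and 59.9%, and 80.2% and 77.5%. Wider regions were thus more often higher, with 1 gene or with several. The part of width in the shares above was not tested.

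Opposite-strand pairs made up 567 of the 666 regions with 2 genes, and same-strand pairs 99. Spaced head-to-head pairs were the most frequent class, with 393 regions (56.6% of the 694) and a median of 4975 bp between starts (1022 to 11410 bp). Close head-to-head pairs accounted for 118 regions, with a median distance of 231.5 bp (19 to 954 bp). Overlapping heads held 56 regions (8.07%, median 570 bp), same-strand genes with a common start 35 (5.04%), same-strand genes with different starts 64 (9.22%), and sets of 3 or 4 genes 28 (4.03%). The share of opposite-strand pairs among regions with 2 genes was 85.1%, 84.9% and 85.2% in the 3 comparisons, so the lists did not differ in it by more than their counting intervals.

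**Figure D1:**
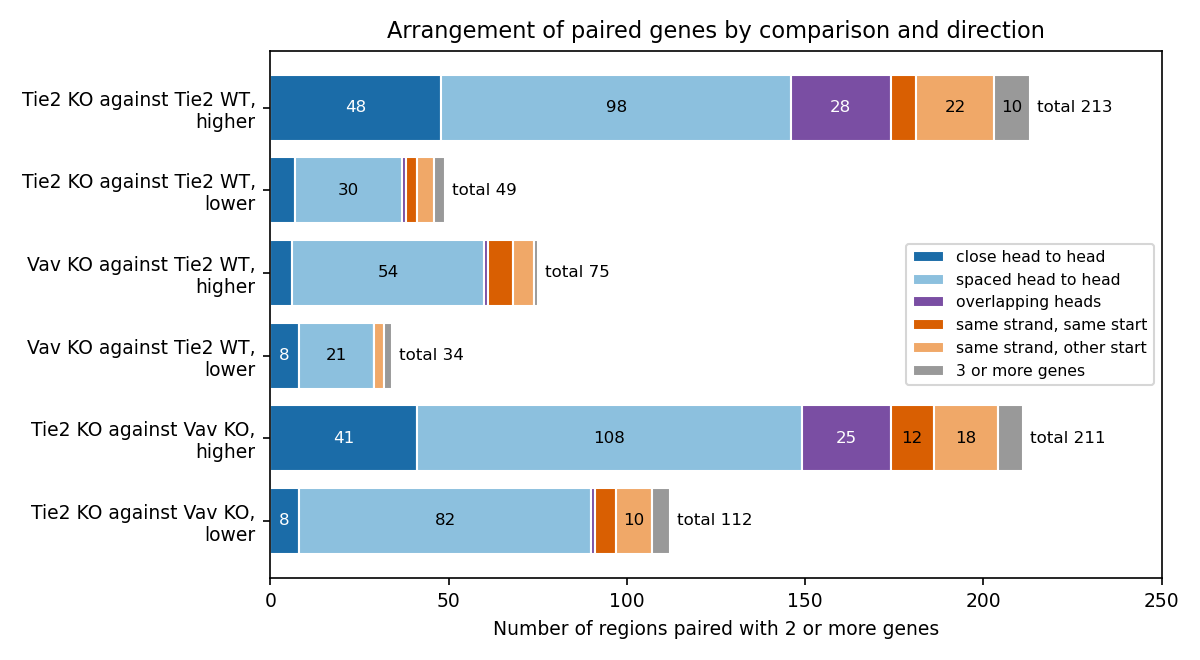
Number of shared regions (x axis) by arrangement of their genes, for each comparison and direction (bars). Spaced head-to-head pairs are the largest segment of every bar, and overlapping heads number 28 and 25 in the bars of regions higher in Tie2 KO and at most 1 in the other 4.

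The split between higher and lower regions was set out by arrangement. Overlapping heads were higher in Tie2 KO in 28 of 29 regions against Tie2 WT (96.6%, 82.2 to 99.9; all listed regions 82.7%) and in 25 of 26 against Vav KO (96.2%, 80.4 to 99.9; 64.8%). The Vav KO against Tie2 WT list held 1 such region, Rnf113a1/Ndufa1, listed by the authors' deposited table at a log2 fold change of 0.60. Close head-to-head pairs were higher in Tie2 KO in 48 of 55 regions against Tie2 WT (87.3%, 75.5 to 94.7) and in 41 of 49 against Vav KO (83.7%, 70.3 to 92.7), but in Vav KO against Tie2 WT in 6 of 14 (42.9%, 17.7 to 71.1). Spaced head-to-head pairs were higher in 98 of 128 regions (76.6%, 68.3 to 83.6), 54 of 75 (72.0%, 60.4 to 81.8) and 108 of 190 (56.8%, 49.5 to 64.0) in Tie2 KO against Tie2 WT, Vav KO against Tie2 WT and Tie2 KO against Vav KO. In Tie2 KO against Vav KO the intervals of overlapping and close pairs lay above the 64.8% of all regions and that of spaced pairs below it. Every overlapping and close pair had a start covered, while 254 of 393 spaced regions, over all lists, covered none. Among regions with 1 gene in Tie2 KO against Vav KO, 88.0% were higher with the start covered and 54.4% without. The intervals of overlapping and close pairs held the 88.0%, and that of spaced pairs held the 54.4%. An effect of arrangement apart from start coverage was not tested. In the other comparisons the intervals of close and spaced pairs held the 82.7% and 67.6% of all regions, as did that of overlapping heads in Tie2 KO against Tie2 WT.

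Taken by strand alone, the split was less marked. Opposite-strand pairs were higher in 82.1%, 67.8% and 65.7% of regions and same-strand pairs in 78.4% (29 of 37), 81.2% (13 of 16) and 65.2% (30 of 46), in the same order. The intervals of these same-strand shares, 61.8 to 90.2, 54.4 to 96.0 and 49.8 to 78.6, hold the background of their lists.

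**Figure D2:**
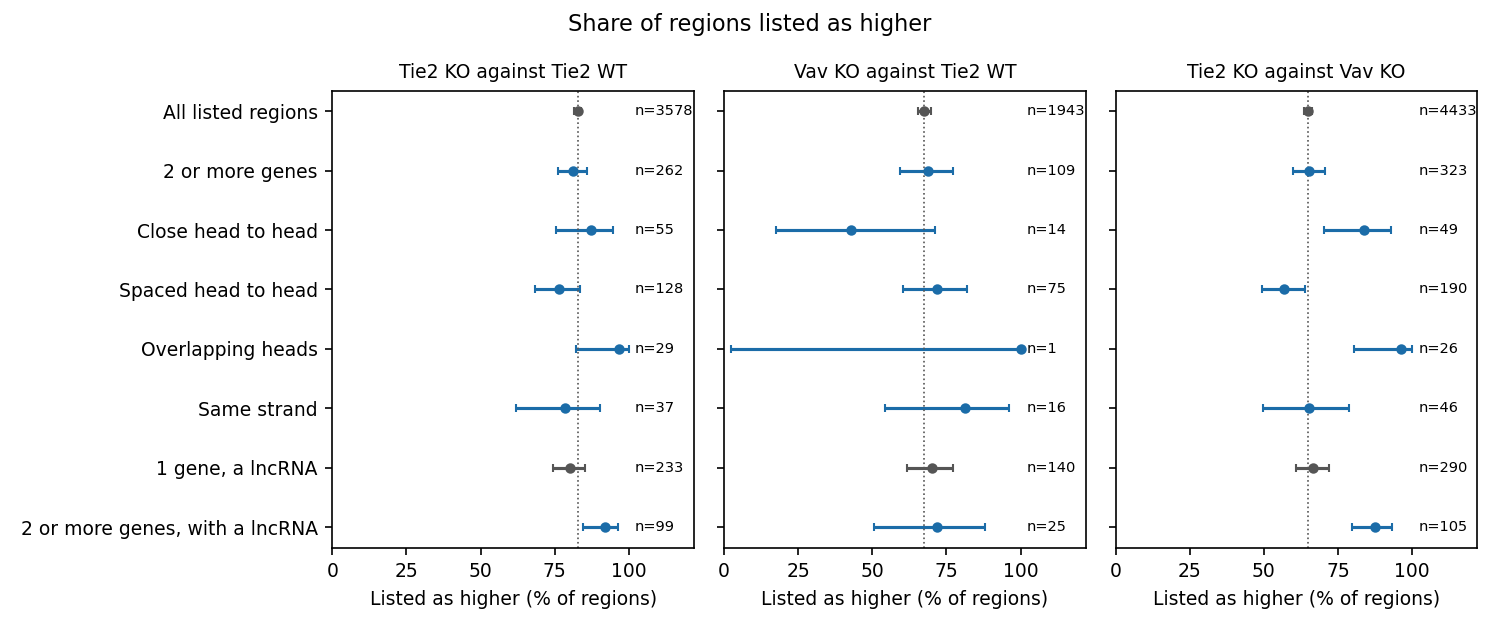
Share of regions listed as higher (x axis, percent) for groups of regions (y axis) in each comparison, with exact 95% binomial intervals that cover counting over the list only; grey marks all listed regions and regions with 1 gene that is a lncRNA, and the dotted line is the share over all listed regions. Overlapping heads lie at 96.6% and 96.2% in the comparisons of Tie2 KO, and close head-to-head pairs at 42.9% in Vav KO against Tie2 WT.

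The directions were also set out by the starts covered. By construction, every close pair had at least 1 start covered, since the smallest region is wider than its gap, and every overlapping pair had both covered. Of 146 head-to-head regions higher in Tie2 KO against Tie2 WT, 38 covered both starts, 61 one and 47 none, while the 37 lower regions covered both in 0, one in 13 and none in 24. Against Vav KO, the 149 higher regions divided into 39, 57 and 53 and the 90 lower regions into 3, 18 and 69. In Vav KO against Tie2 WT, 3, 14 and 43 of 60 higher regions covered both, one and no start, and so did 4, 7 and 18 of 29 lower regions.

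Regions with 1 gene showed a like split. In Tie2 KO against Tie2 WT, 94.2% of regions with 1 gene that covered its start were higher, and 88.0% of shared regions that covered a start (162 of 184, 82.5 to 92.4). The same shares were 88.0% and 80.1% (145 of 181, 73.5 to 85.7) in Tie2 KO against Vav KO, and 69.1% and 61.9% (26 of 42, 45.6 to 76.4) in Vav KO against Tie2 WT. Without a start, they were 72.5% and 65.4%, 54.4% and 46.5%, and 67.2% and 73.1%. A start was covered by 76.1% of shared regions higher in Tie2 KO against Tie2 WT and by 44.9% of lower ones, which is more often than among regions with 1 gene (54.0% and 16.1%). A shared region has more starts to cover, and in this comparison the median width of higher shared regions was 1799 bp and that of lower ones 1099 bp.

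**Figure D3:**
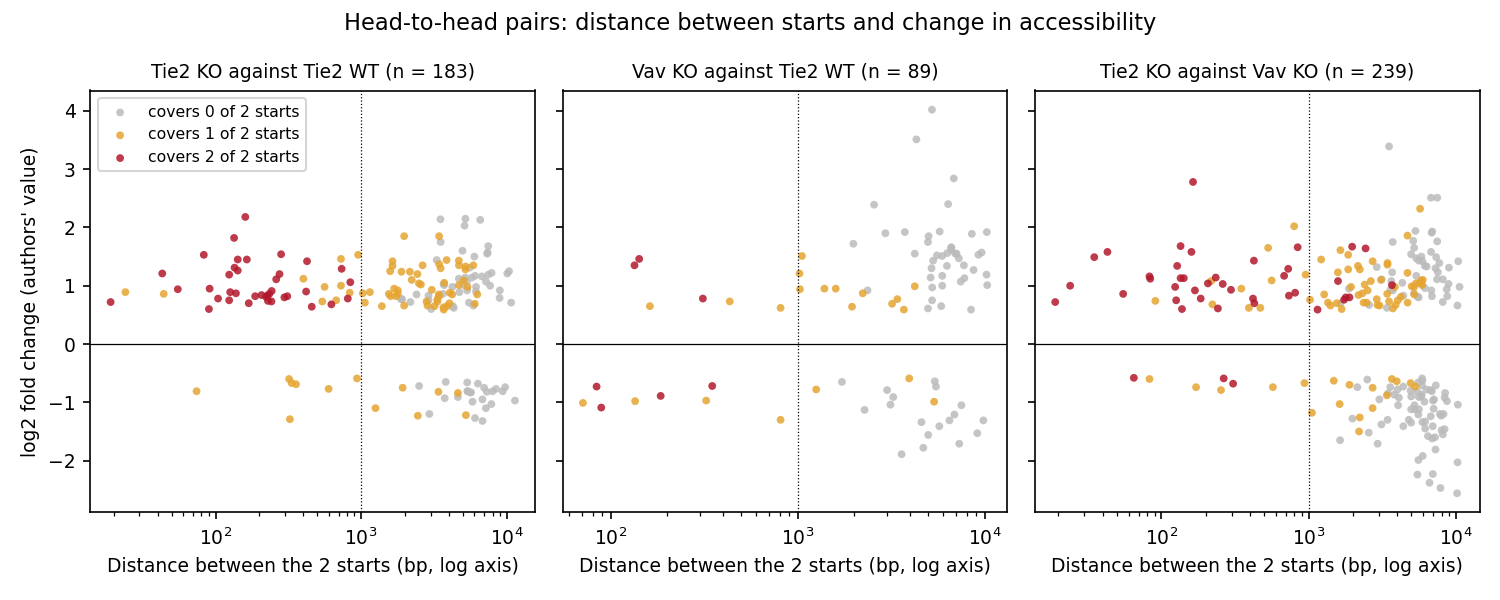
Distance between the 2 starts of each head-to-head pair (x axis, bp, log axis) and the log2 fold change of its region in the authors' deposited table (y axis), by comparison; colour gives how many of the 2 starts the region covers and the dotted line marks 1000 bp. Regions covering both starts (38 and 39 of the higher regions) lie above 0 in the comparisons of Tie2 KO except for 3 lower regions against Vav KO, and regions covering neither lie mostly at the right.

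Protein-coding genes alone made up 407 of the 694 shared regions (58.6%), and coding genes with a lncRNA 205 (29.5%). A miRNA gene was present in 54, a small nucleolar RNA gene but no miRNA in 12, and 16 held other mixtures. The lncRNA pairs were concentrated at short distances: 42 of 56 overlapping heads and 70 of 118 close head-to-head regions joined a coding gene to a lncRNA, against 78 of 393 spaced ones. Shared regions with a lncRNA were higher in Tie2 KO in 91 of 99 regions against Tie2 WT (91.9%, 84.7 to 96.4) and in 92 of 105 against Vav KO (87.6%, 79.8 to 93.2). Regions with 1 gene that was a lncRNA were higher in 80.3% (74.6 to 85.2) and 66.6% (60.8 to 72.0). These intervals overlapped slightly in the first comparison and lay apart in the second.

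Among regions that covered a start, the same contrast was 97.5% (79 of 81, 91.4 to 99.7) with a lncRNA partner against 83.1% (72.9 to 90.7) for a lncRNA alone in Tie2 KO against Tie2 WT, and 76 of 80 (87.7 to 98.6) against 76.8% (65.1 to 86.1) in Tie2 KO against Vav KO. In Vav KO against Tie2 WT it was 62.5% (10 of 16, 35.4 to 84.8) against 15 of 20 (50.9 to 91.3). Over all regions with 1 gene that covered its start, of any gene type, the share was 94.2% in Tie2 KO against Tie2 WT. It was 88.0% in Tie2 KO against Vav KO and 69.1% in Vav KO against Tie2 WT. The interval of the shared regions with a lncRNA held this share in each comparison. Shared regions with coding genes only were higher in 110 of 143 (76.9%) in Tie2 KO against Tie2 WT and in 105 of 190 (55.3%) in Tie2 KO against Vav KO. In Vav KO against Tie2 WT they were higher in 52 of 74 (70.3%). Regions with 1 gene that was protein-coding were higher in 83.7%, 65.5% and 67.3%, in the same order. Width went with the split between lncRNA and coding pairs. In Tie2 KO against Tie2 WT the median was 1999 bp for higher lncRNA pairs and 1499 bp for higher coding pairs. The part of width in this difference was not tested. In Vav KO against Tie2 WT, 18 of 25 shared regions with a lncRNA were higher (72.0%, 50.6 to 87.9), near the 67.6% of all regions.

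Developmental transcription factor genes were followed as a list. In the list of Pax, Nkx, Tbx, Dlx, Lhx, Fox, Sox, Gata and like families, 20 shared regions were higher in Tie2 KO against Tie2 WT and 0 lower, and 24 were higher and 1 lower than in Vav KO. They were thus 20 of 213 and 24 of 211 higher shared regions, beside 159 of 2959 and 178 of 2873 among all higher regions. The list was chosen with results of these data known, so its direction is no independent evidence. A lncRNA was the partner in 18 of the 20 and 20 of the 24. The authors' deposited table put their median at 0.92 and 0.99 on the log2 scale, against 1.02 and 1.16 for all higher regions.

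Each of the following joins a transcription factor gene to a divergent lncRNA. At Uph/Hand2, where Hand2 is a basic helix-loop-helix factor of heart and limb and the starts lie 124 bp apart, the authors' deposited table gave 1.19 (adjusted p = 1.52e-07) against Tie2 WT and 0.98 (1.16e-06) against Vav KO. At BC006965/Sox9, a gene of cartilage and testis formation, the authors' deposited table gave 0.86 and 1.14. At 1700018A04Rik/Foxf2, with starts 24 bp apart, the authors' deposited table gave 0.89 and 1.00. All 3 pairs had both starts covered in the comparison with Vav KO, and Foxf2 had 1 covered in the comparison with Tie2 WT.

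The head genes Lhx1, Lhx8, Emx2, Foxl2 and Otx2, which encode factors of brain, kidney or ovary formation, followed the same form. The authors' deposited table gave Lhx1/Lhx1os 0.89 and 0.75, and Lhx8/AI606473 1.11 and 1.03, against Tie2 WT and Vav KO. Emx2os/Emx2 had 0.94 and 0.86, and Foxl2os/Foxl2 0.80 and 0.93, in the authors' deposited table. Otx2/Otx2os1, a spaced pair, had 2 regions against Tie2 WT, at 1.34 and 1.42 in the authors' deposited table, and 1 against Vav KO, at 1.61. At Nkx2-6/1700092C10Rik, overlapping heads 41 bp apart, the authors' deposited table gave 1.09 and 1.91. The exception among 25 factor regions in Tie2 KO against Vav KO was Mthfsd/Foxc2, a spaced pair of coding genes, at -1.20 in the authors' deposited table, which was 1.13 in Vav KO against Tie2 WT.

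A pair of regions from these and the Hox families was also listed in Vav KO against Tie2 WT with the other sign. At 2610035F20Rik/Zic2, a zinc finger factor of the neural plate, the authors' deposited table gave -0.89 in Vav KO against Tie2 WT (adjusted p = 9.95e-05) and 0.78 in Tie2 KO against Vav KO (0.00011). At Haglr/Hoxd1, whose 83-base gap is printed above, the authors' deposited table gave -0.73 (adjusted p = 0.00045) and 1.12 (1.09e-05). Both comparisons use the Vav KO samples, so these values are not independent of each other.

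Hox genes, which set position along the body axis, contributed 10 of their 46 regions higher in Tie2 KO against Tie2 WT, 11 of 39 higher than in Vav KO, and none lower in either. At Hoxa2/Hoxaas2, joined to a lncRNA 843 bp away, the authors' deposited table gave 1.06 and 1.66. Same-strand members were Hoxd10/Hoxd9, at 1.96 against Vav KO in the authors' deposited table, and Hoxa6/Hoxa3, at 0.83 and 1.53. Hoxa10/Hoxa11os held the 2 shared regions among 5 Hox regions higher in Vav KO against Tie2 WT, with 0.99 and 1.55 in the authors' deposited table. Several of these lie in 1 cluster on chromosome 6 and share partners, so they are not separate observations.

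Symbols that end in os, ot or as, which mostly mark opposite-strand transcripts but also take in the coding gene Mcidas, gave 18 higher and 0 lower shared regions in Tie2 KO against Tie2 WT. They gave 3 and 2 in Vav KO against Tie2 WT, and 17 and 1 in Tie2 KO against Vav KO. All listed regions with such a symbol were 48 higher and 5 lower, 13 and 5, and 53 and 9, in the same order. They were thus mostly higher with or without a shared region. Wt1os/Wt1, the closest such pair at 19 bp and joined to a gene of kidney formation, had 0.72 in both comparisons of Tie2 KO in the authors' deposited table. At Plekhd1os/Plekhd1 the authors' deposited table gave 1.31 and 1.68.

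Of 12 head-to-head pairs known from textbooks, 6 had a listed region at either gene and 1 was a shared pair. This was Col4a2/Col4a1, the divergent genes of basement membrane collagen IV, whose starts lie 21 bp apart in overlapping orientation. The region chr8:11311402-11314700 was higher in Tie2 KO against Tie2 WT, where the authors' deposited table gave a log2 value of 1.17 (adjusted p = 2.21e-06).

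Close pairs of 2 coding genes held 17 of the 23 lower calls at close pairs. Over the 3 lists, 29 of 46 such regions (35 gene sets) were higher, compared with 64 of 70 close regions with a lncRNA (43 sets). The lists share samples and some loci recur, so these regions are not separate observations. In Tie2 KO against Tie2 WT, Vav KO against Tie2 WT and Tie2 KO against Vav KO, coding pairs were 16 higher and 6 lower, 3 and 4, and 10 and 7. Pairs with a lncRNA were 31 and 1, 3 and 4, and 30 and 1. Of all listed regions, 82.7%, 67.6% and 64.8% were higher. Among the lower coding pairs in Tie2 KO against Tie2 WT, Serinc4/Hypk had -1.29 (adjusted p = 1.01e-05) and 1700088E04Rik/Polr2f -0.81 in the authors' deposited table. Pecam1/Milr1, where Pecam1 encodes the endothelial and blood cell adhesion molecule CD31, had -0.77 in the authors' deposited table, with 1 of 2 starts covered. Against Vav KO, Polr3c/Rnf115, with a subunit of RNA polymerase III, had -0.74, and Polr2l/Tspan4, with another polymerase subunit, -0.60, in the authors' deposited table. Of the other genes on the endothelial list only Sox18 was in a shared region, the spaced pair Sox18/Tcea2 at 0.94 against Vav KO in the authors' deposited table. The direction at Pecam1 was not that of its list. All listed regions of endothelial genes were 4 higher and 1 lower in Tie2 KO against Tie2 WT, the lower one at Pecam1/Milr1. In Tie2 KO against Vav KO they were 5 higher and 0 lower.

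In Vav KO against Tie2 WT, the close pairs went both ways. Smc1b/Ribc2, with a cohesin subunit of meiosis, had 1.46 and Bhmt2/Dmgdh, both enzymes of one-carbon metabolism, had 1.35 in the authors' deposited table. In Tie2 KO against Tie2 WT, which has the same control samples, the authors' deposited table gave 1.45 and 1.82. Qrsl1/Rtn4ip1, both coding for mitochondrial proteins, had -1.01 and Taf6/Cnpy4, with a subunit of TFIID, -0.72 in the authors' deposited table. Serinc4/Hypk was lower here too, at -0.97 in the authors' deposited table. Both of its calls use the Tie2 WT samples.

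Among opposite-strand pairs, most regions with the largest changes were at spaced pairs, as were 393 of all 567 opposite-strand regions. For opposite-strand pairs in Tie2 KO against Tie2 WT, the authors' deposited table put Gm26633/Acan first at 2.18. Acan is the gene of the cartilage proteoglycan aggrecan, with a non-coding partner 160 bp away. This pair was followed in the authors' deposited table by Lexm/Ttc22 (2.15), Fam19a3/Ppm1j (2.14), 4930405J17Rik/Rpl32l (2.13) and Maats1/Cox17 (2.03), all with starts at least 3509 bp apart. The lowest opposite-strand pairs in the authors' deposited table were Ftx/Zcchc13 (-1.32), Serinc4/Hypk (-1.29), Lst1/Ltb (-1.27), Uqcrq/Gdf9 (-1.23) and Il23a/Pan2 (-1.22). Ftx is a lncRNA of the X inactivation centre, and Ltb and Il23a encode cytokines of immune cells.

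In Vav KO against Tie2 WT the authors' deposited table gave the largest value of all shared regions, 4.02 at Stmn3/Rtel1 (adjusted p = 7.23e-08), followed among opposite-strand pairs by 3.51 at 1700001O22Rik/Ntmt1 and 2.84 at Kbtbd13/Rasl12. Tm9sf1/Tssk4 (2.40) and Dusp27/Gpa33 (2.39) came next among these pairs in the authors' deposited table. Stmn3 encodes a stathmin and Rtel1 a helicase of telomere upkeep. The lowest opposite-strand pairs there in the authors' deposited table were Stap2/Mpnd (-1.89), Mir483/Igf2os (-1.78), Tmem241/Riok3 (-1.71), 9130011E15Rik/Hps6 (-1.56) and Fbxo43/Polr2k (-1.53). For opposite-strand pairs in Tie2 KO against Vav KO the authors' deposited table ran from 3.39 at Tgfb3/Ift43 and 2.78 at Gm15631/Cntn4 to -2.56 at Rpap1/Tyro3 and -2.47 at Mcat/Tspo. Between these pairs the authors' deposited table held Mad2l1bp/Gtpbp2 and Mapkapk3/Cish (both 2.51), Sel1l2/Macrod2 (2.32), Exoc6b/Npm3-ps1 (-2.38), Aqp9/Gm32511 (-2.24) and Mir5617/Timp1 (-2.23). The set of 3 genes Gpr182/Rdh1/Rdh9 had 2.89 in this comparison in the authors' deposited table. Tgfb3 encodes a transforming growth factor beta ligand, Cntn4 a neural adhesion molecule, Tyro3 a receptor tyrosine kinase and Tspo a protein of the outer mitochondrial membrane.

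Among same-strand pairs, the authors' deposited table gave the largest change in Tie2 KO against Tie2 WT to Mir182/Mir96 (1.82, adjusted p = 0.00094), 2 miRNA genes of 1 cluster that is known from sensory cells. Gm28042/Jmjd7 was lowest at -1.62, and Tnfsf12/Tnfsfm13 was highest in Vav KO against Tie2 WT at 2.42, both in the authors' deposited table. That region lay inside one at -1.58 (adjusted p = 0.044) in Tie2 KO against Vav KO in the authors' deposited table. In that comparison the same-strand pairs ran from 2.03 at Adprhl2/Tekt2 to -2.04 at Emc8/Gm27021 in the authors' deposited table. Ffar3/Ffar1, which encode receptors for fatty acids, had -1.54 in Vav KO against Tie2 WT in the authors' deposited table.

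Genes given 1 common start on the same strand count as separate genes in the lists although a region cannot tell them apart. The 35 such regions include Gm21948/Nup62, H2-DMb1/H2-DMb2, Hist3h2a/Trim17 and Cerkl/Neurod1, whose 2 symbols carry the same start coordinate in the deposited annotation. Cerkl/Neurod1, with a factor of neurons and endocrine cells, had 1.42 and 1.34 against Tie2 WT and Vav KO in the authors' deposited table. Epo/Gnb2, with the hormone that drives red cell production, was higher in Vav KO than in Tie2 WT at 1.23 in the authors' deposited table.

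A gene with a Mir symbol lay in 15 higher and 3 lower shared regions in Tie2 KO against Tie2 WT, 3 and 4 in Vav KO against Tie2 WT, and 18 and 9 in Tie2 KO against Vav KO. All listed regions with such a gene were 69 higher and 36 lower, 52 and 33, and 85 and 76. The RefSeq table held 35 of the 41 miRNA genes. Mature sequences of 4 miRNAs from the leading regions are printed with the seed, bases 2 to 8, in capitals, so that the seeds of genes that share a region can be compared.
miR-96-5p: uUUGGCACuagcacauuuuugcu
miR-182-5p: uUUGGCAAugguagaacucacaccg
miR-34b-3p: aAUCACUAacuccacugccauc
miR-34c-3p: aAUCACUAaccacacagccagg
The seeds of miR-96-5p and miR-182-5p are UUGGCAC and UUGGCAA, and miR-34b-3p and miR-34c-3p share AUCACUA. This is the seed of their 3p arms only. The 5p arms of miR-34b and miR-34c have seeds of their own and are not printed. The region of 4833427G06Rik/Mir34c/Mir34b/Btg4, a set of 4 genes that includes miRNAs known as targets of p53, had 0.84 (adjusted p = 0.00013) in Tie2 KO against Tie2 WT in the authors' deposited table. A region of Mir34c/Mir34b/Btg4 had 0.81 in Vav KO against Tie2 WT in the authors' deposited table. Other regions higher in Tie2 KO held neural and muscle miRNA genes: the authors' deposited table gave Mir3093/Mir9-1 1.24 and 0.88, and Mir124a-1hg/Mir124a-1 1.14 and 1.11, against Tie2 WT and Vav KO. At Mir1a-1hg/B230312C02Rik/Mir1a-1 the authors' deposited table gave 1.44 and 1.08.

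Small nucleolar RNA genes, which guide the chemical modification of ribosomal and other RNAs from within introns of host genes, went the other way. All 3 of their shared regions in Tie2 KO against Tie2 WT and all 7 in Tie2 KO against Vav KO were lower. The lists hold few such regions in all, 6 lower and 1 higher in the first comparison and 12 lower and 0 higher in the second, so the shared regions share this direction with the others. At Snora44/Snora61/Snord99 the authors' deposited table gave -0.64 and -0.65. Snord15b/Snord15a was higher in Vav KO than in Tie2 WT at 0.87 and lower in Tie2 KO than in Vav KO at -1.09, over 1 region, in the authors' deposited table.

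Ribosomal protein genes had 5 shared regions in Tie2 KO against Vav KO, all lower, out of 24 lower and 5 higher regions listed for them. In Tie2 KO against Tie2 WT they had 2 higher and 1 lower shared regions, out of 10 higher and 12 lower listed for them. In Vav KO against Tie2 WT they had 0 higher and 2 lower, out of 10 higher and 2 lower listed. Most of their listed regions in that comparison were thus higher. In Tie2 KO against Vav KO, Surf6/Rpl7a had -1.48 and 1700007K13Rik/Mrps2 -1.65 in the authors' deposited table. Oxidative phosphorylation genes had 1 higher and 1 lower shared region in Tie2 KO against Tie2 WT, out of 2 and 2 listed. The counts were 2 and 0 out of 7 and 3 in Vav KO against Tie2 WT. They were 2 and 3 out of 5 and 12 in Tie2 KO against Vav KO. Maats1/Cox17 had a higher region in all 3 comparisons, but that of Vav KO against Tie2 WT was other DNA. It lay 501 and 901 bp from the regions of Tie2 KO against Tie2 WT and of Tie2 KO against Vav KO. Ndufs1/Snora41 had -1.50 and Cox8b/BC024386 -1.21 and -1.99 in Tie2 KO against Vav KO in the authors' deposited table. Polycomb genes were shared in 2 regions, Tlx2/Pcgf1 and Pcgf2/Psmb3, at 1.11 and 0.67 in Tie2 KO against Vav KO in the authors' deposited table. All Polycomb regions listed in that comparison were 9 higher and 0 lower. No gene of the erythroid list lay in a shared region. Proteasome genes had 2 higher and 0 lower shared regions in each comparison of Tie2 KO, out of 2 higher and 1 lower regions listed for them against Tie2 WT and 2 higher and 8 lower against Vav KO, with Psmd5/Cutal at 0.82 and 1.36 in the authors' deposited table. Replication-dependent histone genes had 1 higher and 1 lower shared region in Tie2 KO against Tie2 WT, out of 1 and 2 listed. In Tie2 KO against Vav KO they had 1 and 2, out of 4 and 5. Hist4h4/H2afj had -0.65 and -0.87 in these comparisons in the authors' deposited table.

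Of the 482 gene sets, 310 appeared in 1 comparison, 163 in 2 and 9 in all 3. The comparisons share groups of samples, so the values below are set side by side and are not independent. Within a gap of several kb the regions of different comparisons need not be the same DNA. At Stmn3/Rtel1 the authors' deposited table gave 1.33 in Tie2 KO against Tie2 WT and 0.85 in Tie2 KO against Vav KO for regions over the Stmn3 start. The 4.02 in Vav KO against Tie2 WT, in the authors' deposited table, belonged to a region 501 bp away that covered neither start.

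At Mir483/Igf2os, a miRNA and an antisense lncRNA of the imprinted Igf2 growth factor gene, the authors' deposited table gave 3 regions in Tie2 KO against Tie2 WT, at 1.43, 1.12 and 1.01. It gave 2 in Tie2 KO against Vav KO, at 1.86 and 1.22, and 1 in Vav KO against Tie2 WT, at -1.78, in the authors' deposited table. That last region overlapped the one at 1.12 over 1199 bp, so both knockouts were called against the same control with opposite signs at this spot.

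At Uqcc3/Lbhd1, with an assembly factor of respiratory complex III, the authors' deposited table gave -1.20, 1.90 and -1.71 in Tie2 KO against Tie2 WT, Vav KO against Tie2 WT and Tie2 KO against Vav KO. The last 2 values belong to the same region, which overlapped the first by 99 bp. At Emc1/Ubr4 the authors' deposited table gave -0.85, 0.81 and -0.94 in the same order, and at Vkorc1/Bckdk -0.77, 0.59 and -0.84. At Asl/Crcp the authors' deposited table gave 1.60, 0.61 and -0.90, where the first region lay 2101 bp from the others.

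**Figure D4:**
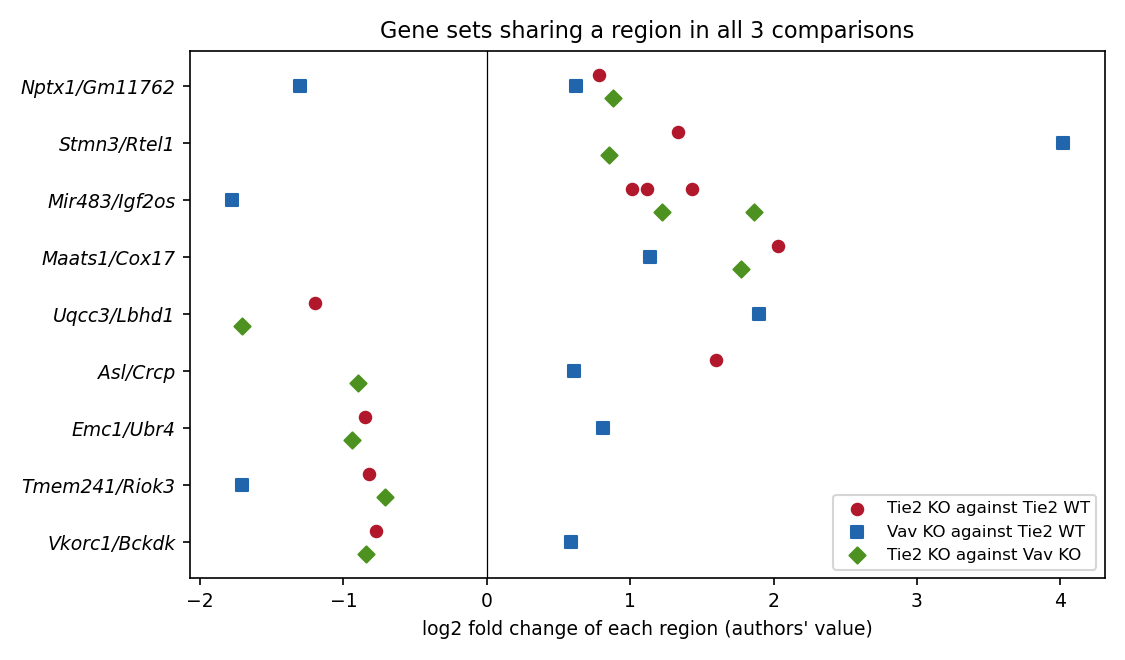
log2 fold change in the authors' deposited table (x axis) of every region of the 9 gene sets that share a region in all 3 comparisons (y axis), with the comparison as colour and shape; comparisons share groups of samples. Stmn3/Rtel1 in Vav KO against Tie2 WT lies farthest out at 4.02, and Mir483/Igf2os lies at -1.78 in that comparison and above 1 in the other ones.

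There were 25 gene sets with more than 1 shared region within a comparison, in 30 combinations of set and comparison, and in 5 of these the regions went opposite ways. All 5 were head to head. So were all the other repeated sets except Gm21948/Nup62, H2-DMb1/H2-DMb2 and Lin37/Igflr1/U2af1l4. At Slfn14/AA465934, where Slfn14 is a ribonuclease of platelet and red cell precursors, regions 1001 bp apart had -1.12 and 1.54 in Tie2 KO against Vav KO in the authors' deposited table. At Tmem91/B9d2, also 1001 bp apart, the authors' deposited table gave 1.43 and -0.91, and at Mir6929/Rundc1 -0.90 and 1.04. At 2610507I01Rik/2310033P09Rik, 101 bp apart, the authors' deposited table gave -1.34 and 1.42. At Nptx1/Gm11762, with a secreted protein of synapses, neighbouring regions 301 bp apart had 0.62 over the Nptx1 start and -1.3 over the Gm11762 start in Vav KO against Tie2 WT in the authors' deposited table.

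Other sets repeated with the same sign. The regions of Tgfb3/Ift43, 1501 bp apart, had 1.3 and 1.75 in Tie2 KO against Tie2 WT and 0.73 and 3.39 in Tie2 KO against Vav KO in the authors' deposited table, with the first of each pair over the Tgfb3 start. Those of Lexm/Ttc22 had 2.15 and 1.28, then 1.65 and 0.98, in the authors' deposited table.

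Shared regions also set which genes the lists name. In Tie2 KO against Tie2 WT, 345 of the 2833 genes named by higher regions (12.2%) and 99 of the 656 named by lower regions (15.1%) were named only through a region shared with another gene. The shares were 10.5% and 10.4% in Vav KO against Tie2 WT and 12.6% and 13.4% in Tie2 KO against Vav KO. The lists do not tell to which of the paired genes the change in accessibility belongs.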

How the data were processed

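Accessibility was measured by ATAC-seq in 14 samples, of which 11 enter the lists. Named in the submitters' processing notes are build mm10, MACS2 2.1.2, HOMER 4.10, SAMtools 1.3.1, Bowtie2, Picard and FastQC. For the Tn5 shift, duplicates, scaling and the test, no method is stated in these notes or in the file headers. Per the file headers, the authors deposited for each region a log2 fold change, its adjusted p-value and other measures, its width and distance to each gene start in bp. The 6 lists (higher and lower, 3 comparisons) were joined with pandas 2.3.3, and regions were counted within each comparison. Every listed region had an absolute log2 fold change of at least 0.58 and an adjusted p of at most 0.0479. Of 956 member genes, 953 matched RefSeq GRCm38.p6, used for gene types and sequences, and 1 symbol turned into a date was restored. Intervals are exact binomial at 95% (SciPy 1.17.1). The strand classes were tested on simulated data. No test of samples was possible, and depth per sample is unknown. The members and gene lists were chosen with earlier results of these data known. Named regions are those with the largest fold changes by strand class, all with 4 genes, those in several comparisons, and leading members of each list; not all are printed, some results are not reported here, and further examples were chosen after their values were seen.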

Additional observations from a re-analysis of the deposited data

How the results depend on the processing

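Of 66 recomputed percentages, 48 stayed within the exact binomial interval of the value reported and 18 did not. With protein-coding genes only, 4.57%, 4.36% and 4.89% of regions were shared in Tie2 KO against Tie2 WT, Vav KO against Tie2 WT and Tie2 KO against Vav KO, and 55.4% of shared regions were higher in the last. With regions of the smallest width only, the shared percentages were 5.94%, 6.8% and 6.11%. At that width, Tie2 KO against Tie2 WT had 63.6% higher among shared regions, 90.9% opposite-strand pairs, 64.0% higher among those and 60.0% among same-strand pairs, and Tie2 KO against Vav KO had 47.1% and 43.7% higher among shared regions and opposite-strand pairs. With an absolute log2 fold change of at least 1, 6.08% and 6.12% of regions were shared in the comparisons of Tie2 KO, and in Tie2 KO against Tie2 WT 88.8% of shared regions and 89.9% of opposite-strand pairs were higher. With genes of the same start counted once, chosen after seeing the data, Tie2 KO against Vav KO had 90.6% opposite-strand pairs. The cause was not tested. Of the 694 regions, 367 overlapped a shared region of another comparison, and 282 at an overlap of 50%.

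No paired analysis was possible because the lists hold no value per sample, and no replicate was left out for the same reason. Regions that did not change are not listed, so no share here is a share of all accessible regions.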
